A study of Saccharomyces cerevisiae with 2 samples.

Results

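Ribosome footprints were dense on 53 of the scarcer mRNAs of growing budding yeast. Of the 4685 genes in the deposited table, 2378 had less than 50 RPKM of mRNA (reads per kilobase of gene, scaled to library size), and 53 of those also had a footprint RPKM of at least 1.64 times the mRNA RPKM. These 53 genes are called the members below, and the 2325 others under 50 RPKM are called the other scarce genes. The cells were Saccharomyces cerevisiae BY4741, a haploid MATa laboratory strain with deletions in several marker genes, grown to mid-log phase in YPD, the standard rich glucose medium. One group was RNA-seq of cytoplasmically enriched RNA after removal of ribosomal RNA with Ribo-Zero, and the other was ribosome-protected fragments. The labels name no treatment. With 1 library per assay, the spread between replicates is unknown for every value here, and no test was possible.

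Ribosome profiling sequences the stretch of mRNA that a translating ribosome shields from nuclease. The footprint level divided by the mRNA level gives a relative density of ribosomes per mRNA, often called translational efficiency. Both levels are scaled within their own library, so the ratio compares genes and does not count ribosomes. In yeast, initiation is usually the slow step of translation. The small ribosomal subunit binds near the cap and scans to a start codon, and the bases around that codon and any start codon upstream of it are known to influence how often the main frame is used. A scarce mRNA with dense ribosomes can yield as much protein as a more abundant mRNA with sparse ones.

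The members were chosen by their mRNA and footprint values, so both are given here as descriptions and nothing is read from them. Scarce means the lower part of the listed genes, since 50.8% of them were under the mRNA limit. The ratio limit was close to 2 times the ratio of the median listed gene (0.815), and 262 genes with more mRNA also reached it. The limit was passed by 6.72% of all listed genes, by 2.23% of those under 50 RPKM of mRNA, and by 11.4% of those at or above it. Members had 12.6 to 49.97 RPKM of mRNA with a median of 32.9. Their footprint values ran from 24.3 to 106.7 RPKM, with a median of 65.3. For the other scarce genes the medians were 27.7 RPKM of mRNA and 16.6 RPKM of footprints. In footprints, 48 members were at or above the median listed gene (38.9 RPKM), as were 233 of the other scarce genes.

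**Figure D1:**
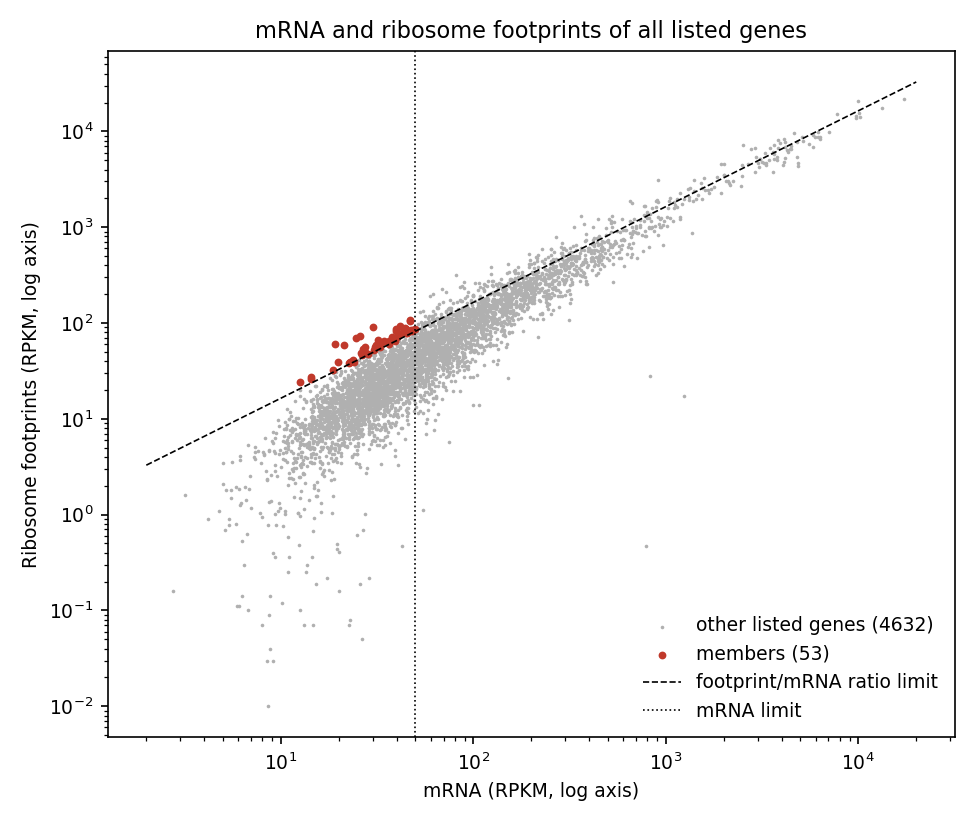
mRNA RPKM (horizontal, log axis) against footprint RPKM (vertical, log axis) for the 4685 listed genes, each a point from 1 library per assay. The 53 members (red) fill the small corner left of 50 RPKM of mRNA and above the ratio line of 1.64.

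Most members lay near the ratio limit. The median ratio was 1.84, 13 members had a ratio of at least 2, and 5 had at least 2.5. Just inside the ratio limit were SOL1 (1.647), OTU2 (1.647) and DDI1 (1.651), and just outside it were SGN1 (1.634), RRF1 (1.622) and DSC3 (1.607). At the mRNA limit, RSR1 (48.2 RPKM), BUD23 (48.7) and GOS1 (49.97) were inside and PEX19 (50.3), SDH4 (51.4) and LYS1 (51.5) outside. Genes on either side of a limit therefore differed by very little, and with 1 library it is unknown which would change sides in a repeat. The mRNA value enters both limits.

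The bases around the start codon are shown for the 12 members with the highest ratio, because the rule did not use sequence and start codon context is where scanning ribosomes begin translation. Each line runs 5′ to 3′ from 20 bases before the start codon to 7 after it, read from assembly R64. Capitals mark the base 3 before the start codon and the start codon itself.
VPS24: caatacaaagtttacttTtgATGgattata
CDC31: acggaaataaatcatacAgtATGagtaaga
FYV7: agcaactgagcaaaatcAatATGggtacag
ASF1: aaacataagatatagaaAagATGtcaattg
IES2: ctggcgattagcagactAcaATGgacagtg
PXR1: ccattaaacaaagaagcAgaATGggtttgg
RPF1: atatattgaaatactaaAaaATGgctctcg
MRP35: agatagtatatatatctAtcATGaaaatta
DAP1: cggaatattatagagaaCaaATGtccttca
RTS3: ttaatagaagataaagtAtaATGatcgcta
PRY1: tatcccgtaattgataaAtcATGaaacttt
NBP2: acatatttattgaatctAcgATGgcaacga

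Of these 12 genes, VPS24 and DAP1 lack an A 3 bases before the start codon, which is the base most often A in yeast. Over all members, 33 of 53 had an A there (62.3%, exact 95% interval 47.9 to 75.2%). The share was 55.4% in the other scarce genes, 61.4% in all listed genes, and 73.3% in the 262 genes with the same ratio and more mRNA. A therefore was about as frequent in members as in the table as a whole. G, the other purine, stood at that base in 4 members (7.55%, 2.09 to 18.2%) and in 21.3% of the other scarce genes. C stood there in 9 members (17.0%, 8.07 to 29.8%) and in 10.6% of the other scarce genes, a share within that interval. Among genes up to 600 nt, G stood there in 2 of 20 members (10%, 1.23 to 31.7%). It did so in 17.0% of the other scarce genes of that length, again within the interval. In the 20 bases before the start codon the median content of A was 45% in members and 40% in the other scarce genes.

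ATG triplets were few just upstream of the members' coding sequences. An ATG on the coding strand lay within the 50 bases before the start codon in 1 of 53 members (1.89%, exact 95% interval 0.0478 to 10.1%). The same window held one in 573 of 2325 other scarce genes (24.6%, 22.9 to 26.4%) and in 833 of the 4685 listed genes (17.8%). It held one in 17 of the 262 genes with the same ratio and more mRNA (6.49%). The member with an upstream ATG was FYV7, whose triplet began 44 bases before the start codon and out of frame with it. Weighting the other scarce genes to the coding lengths of the members left their share at 25.3%. Among genes up to 600 nt, 1 of 20 members had such an ATG (5%, 0.127 to 24.9%). It was 27 of 106 in the other scarce genes of that length (25.5%, 17.5 to 34.9%), so these intervals overlap. Within 30 bases the counts were 0 of 53 members, which allows a share of up to 6.72%, and 277 of 2325 other scarce genes (11.9%). Within 100 bases they were 17 members (32.1%) and 1300 other scarce genes (55.9%). The annotation holds no transcript starts, so whether a given triplet lies within the mRNA is unknown. The window and the count were chosen after the values had been seen.

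Among the shorter scarce genes, the share with an upstream ATG was highest at the lowest ratios and lowest at the highest. The 670 scarce genes with a coding length up to 1050 nt were divided into 5 equal classes by ratio. Length was not equal between them, with a median of 882 nt in the class of lowest ratio and 679.5 nt in the highest. The share with an ATG in the 50 bases was 45.5% in the class of lowest ratio, then 26.1, 20.9 and 20.1%, and 10.4% in the highest. Without its members, the highest class had 13 such genes among 88 (14.8%, 8.11 to 23.9%). In these classes the share with an A 3 bases before the start codon went the other way, from 47.8% in the lowest to 64.9% in the highest.

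**Figure D2:**
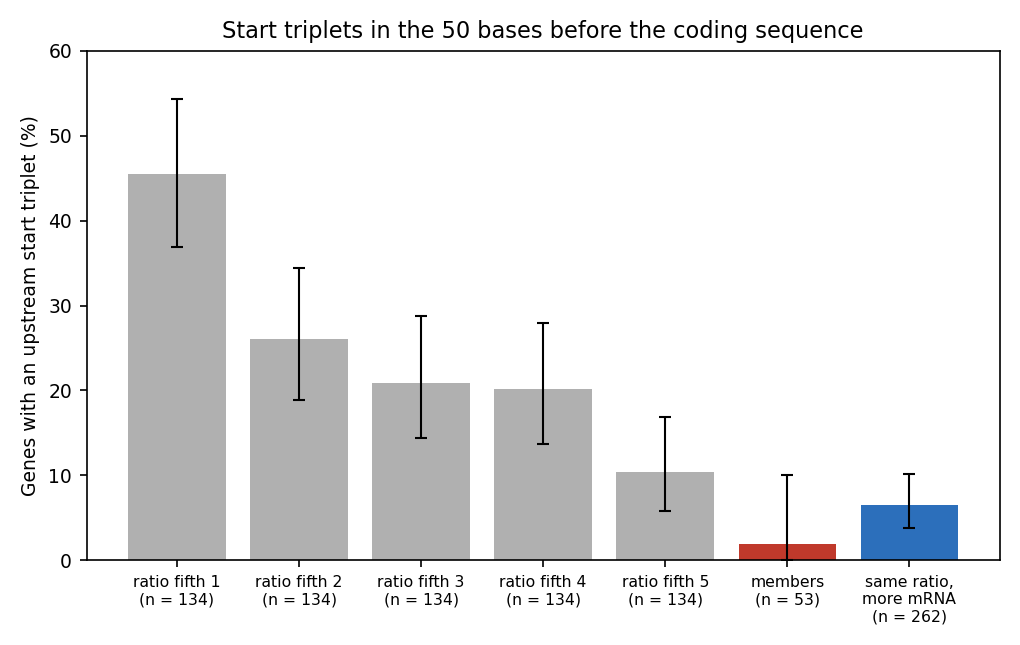
Percentage of genes with an ATG in the 50 bases before the start codon, for 5 classes of footprint to mRNA ratio among the 670 scarce genes up to 1050 nt (grey, 1 lowest to 5 highest), the 53 members (red) and the 262 genes with the same ratio and at least 50 RPKM of mRNA (blue). Bars are shares and lines exact 95% binomial intervals over genes; class 5 includes members, and the share goes from 45.5% in class 1 to 10.4% in class 5 and 1.89% in members.

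Members had short coding sequences. Their coding lengths ran from 327 nt (PET191, a cytochrome c oxidase assembly protein) to 1773 nt (TAF7, a subunit of the general transcription factor TFIID), with a median of 675 nt. The other scarce genes had a median of 1521 nt, and the 262 genes with the same ratio and more mRNA had a median of 462 nt. The next shortest members were HSP12 (330 nt) and RTC3 (336 nt), and the next longest DDI1 (1287 nt) and DEP1 (1218 nt). Up to 600 nt were 20 of 53 members (37.7%, exact 95% interval 24.8 to 52.1%) and 106 of 2325 other scarce genes (4.56%, 3.75 to 5.49%). Members made up 10 of the 40 scarce genes of 301 to 450 nt (25%), 10 of 85 from 451 to 600 nt (11.8%), 9 of 142 from 601 to 750 nt (6.34%) and 10 of 186 from 751 to 900 nt (5.38%). Above that they were 7 of 216 up to 1050 nt (3.24%), 6 of 356 up to 1350 nt (1.69%), 1 of 465 up to 1800 nt (0.215%) and 0 of the 887 longer scarce genes. The median ratio of scarce genes was 1.23, 1.06, 0.98, 0.87, 0.85, 0.72, 0.60 and 0.48 over the same 8 classes, so each class lay below the shorter one before it.

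The authors' filter bears on this length range. Genes were listed only from 10 RPM of RNA (reads scaled to library size alone). Where the authors' gene length equals the coding length, a gene under 200 nt cannot be both listed and under 50 RPKM, and a gene of 600 nt needs at least 16.7 RPKM. RPKM times coding length gave as little as 8.68 RPM for a scarce gene, so the 2 lengths were not equal for every gene. Of the 116 listed genes up to 300 nt, 1 was scarce. By RPKM times coding length, members had 11.4 (YAE1) to 46.7 RPM of RNA (DDI1), and 15 members had less than 15 RPM. Of the 13 members under 25 RPKM of mRNA, 1 was no longer than 600 nt. These low read shares sit next to the filter, and the counting error behind them is unknown because the read totals of the libraries are unknown.

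**Figure D3:**
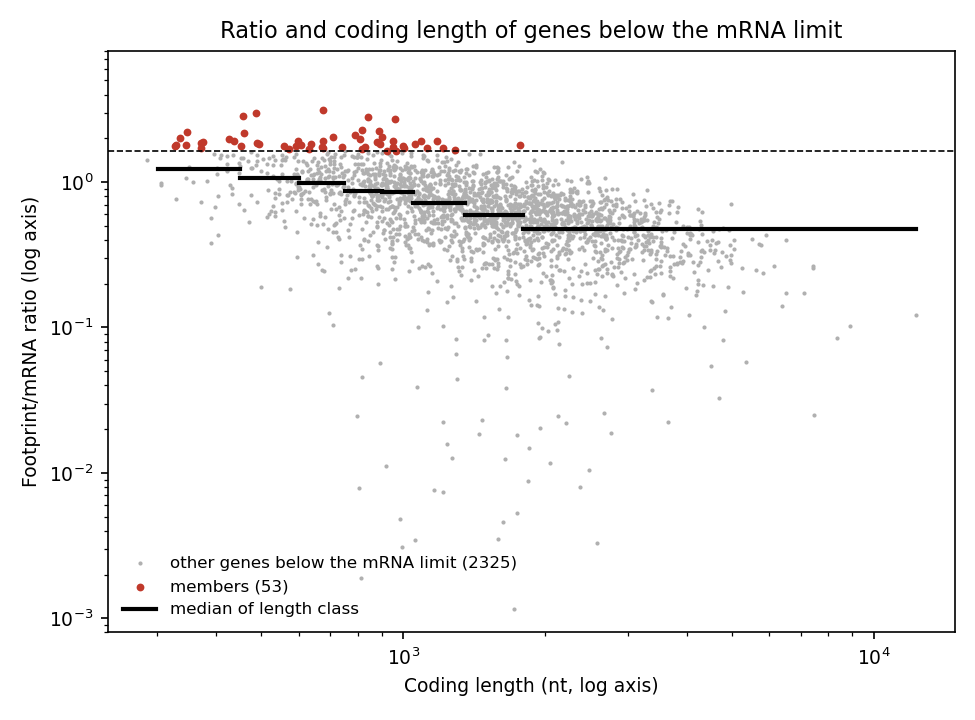
Coding length (horizontal, log axis, nt) against footprint to mRNA ratio (vertical, log axis) for the 2378 genes under 50 RPKM of mRNA; members red, other scarce genes grey, dashed line the ratio limit of 1.64. Black bars are the medians of the coding length classes, from 1.23 for 301 to 450 nt down to 0.48 above 1800 nt, and the members sit to the left.

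Set against listed genes of like coding length, the order of the members changed. Each ratio was divided by the median ratio of its class among 20 classes of coding length over all listed genes. The quotient ran from 1.08 (MTC3) to 2.86 (IES2), and 13 members were at least 2 times their class median. They were IES2 (2.86), VPS24 (2.68), TAF7 (2.61), ASF1 (2.51), RPF1 (2.31), OM45 (2.19), CDC31 (2.13), PRY1 (2.11), MSA2 (2.11), PXR1 (2.04), FYV7 (2.04), ESF2 (2.01) and FPT1 (2.01). Short members such as HSP12 (1.14), YHR138C (1.14) and PET191 (1.12) were close to the listed genes of their own size. Most of those genes were above the mRNA limit. Of the 231 listed genes of 301 to 450 nt, 40 were scarce, and these 40 had a median ratio of 1.23. TAF7, whose ratio of 1.802 lay below the median of the members, was next after VPS24 by this quotient. By the same quotient 3 scarce genes that are no members also reached 2, namely AGA1 (2.22), EAP1 (2.19) and NOP8 (2.05).

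The groups of genes that follow were formed by function after the values had been seen, and each value is a level in RPKM from 1 library. Only the members were sorted in this way, so the size of a group has no background to be read against. Membrane traffic had 5 members. VPS24, which encodes an ESCRT-III protein of the machinery that pinches vesicles into the late endosome, had the highest ratio of the members, with 19.1 RPKM of mRNA and 59.99 RPKM of footprints (ratio 3.14, chromosome XI, 360143 to 360817). In footprints VPS24 thus stood at the 62nd percentile of the listed genes, and in mRNA at the 11.8th. VPS51, a subunit of the Golgi-associated tethering complex GARP, had 26.2 RPKM of mRNA and 48.3 of footprints. The other 3 encode SNAREs, the proteins that fuse vesicles with their target membrane. TLG1, which acts at the late Golgi, had 43.9 RPKM of mRNA and 84.1 of footprints. GOS1, a Golgi SNARE, had 49.97 and 86.9 RPKM. VAM7, a soluble SNARE of the vacuole, had 18.7 and 32.6 RPKM.

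Proteins that mature the respiratory complexes or handle heme had 6 members. Both mitochondrial heme lyases were among them. CYC3, which attaches heme to cytochrome c, had 19.8 RPKM of mRNA and 39.1 of footprints, and CYT2, which does so for cytochrome c1, had 30.4 and 52.1 RPKM. SDH5, needed to attach the flavin of succinate dehydrogenase, had 26.6 and 49.3 RPKM. MZM1, a chaperone of the Rieske protein of the bc1 complex, had 37.9 and 70.7 RPKM, and PET191 had 47.5 and 83.9 RPKM. DAP1, a heme-binding protein that acts on the sterol demethylase Erg11, had 39.5 and 85.6 RPKM, a ratio of 2.17. Another 3 members encode other mitochondrial proteins. MRP35, a protein of the large mitochondrial ribosomal subunit, had 46.9 RPKM of mRNA and 104.2 of footprints. FUN14 and OM45 encode proteins of the outer membrane, and FUN14 had 44.7 and 85.7 RPKM. OM45 had much less of each, at 14.3 and 27.3 RPKM.

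Placed under the making of ribosomes and tRNAs were 8 members, of which YAE1 is also an iron-sulfur assembly gene. PXR1, needed for maturation of ribosomal and small nucleolar RNA, had 46.8 RPKM of mRNA and the most footprints of the members, 106.7 RPKM. RPF1, an assembly factor of the large ribosomal subunit, had 41.6 and 93.6 RPKM. FYV7, a nucleolar protein of small subunit processing, had a ratio of 2.86, with 25.7 and 73.7 RPKM. ESF2, which acts on the precursor of the small subunit RNA, had 44.3 and 85.1 RPKM, and BUD23, which methylates that RNA, had 48.7 and 85.4 RPKM. YAE1, part of an adaptor that brings an iron-sulfur cluster to the recycling factor Rli1, had 26.7 and 52.96 RPKM. TRM10, a tRNA methyltransferase, had 31.3 and 58.7 RPKM. FPT1, a chromatin-associated regulator of RNA polymerase III per the annotation, had 27.2 and 49.9 RPKM. RPF1 is the chromosomal neighbour of RTC3, also a member, and these are 1 of 2 such neighbouring pairs, the other being YER034W and EDC2.

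Chromatin and transcription had 5 members, 2 of them with ratios over 2.5. ASF1, a chaperone of histones H3 and H4, had 24.6 RPKM of mRNA and 68.9 of footprints (ratio 2.81). IES2, of the INO80 chromatin remodelling complex, had 21.4 and 58.4 RPKM (ratio 2.73). SAP30 and DEP1 belong to the histone deacetylase complex Rpd3L, and had 40.03 and 71.96 RPKM and 23.6 and 40.2 RPKM. TAF7 had 14.3 RPKM of mRNA and 25.8 of footprints. Another 3 members act on mRNA itself. SMB1, a core protein of the spliceosomal Sm ring, had 38.6 and 68.6 RPKM. RNA15, which binds RNA in the cleavage factor that makes mRNA ends, had 30.8 and 56.8 RPKM. EDC2, an activator of decapping, had 34.3 and 65.6 RPKM.

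Cell division accounted for 6 members, and 3 of those bear on the anaphase-promoting complex (APC), the ubiquitin ligase that triggers sister separation. CDC26 is a subunit, with 33.0 RPKM of mRNA and 62.0 of footprints. ACM1 is an inhibitor of the form of the APC with Cdh1, with 28.3 and 47.55 RPKM, and PDS1, securin, is a substrate, with 22.9 and 39.6 RPKM. CDC31, the yeast centrin of the spindle pole body, had the next highest ratio after VPS24, 2.998, with 30.2 and 90.5 RPKM (chromosome XV, 811008 to 811493). MSA2, which binds the transcription factors of the G1 phase, had the least mRNA and the fewest footprints of the members, at 12.6 and 24.3 RPKM. CSM1, a subunit of the monopolin complex that also acts in the nucleolus, had 22.6 and 38.35 RPKM. In a bulk culture, fewer cells at a given cell cycle stage and less RNA per cell cannot be told apart.

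The remaining members act elsewhere. Proteasome and ubiquitin proteins were TMA17, a stress-induced assembly factor (46.5 RPKM of mRNA and 82.45 of footprints), DDI1, a ubiquitin-binding protease (36.3 and 59.97), and OTU2, of the deubiquitinase family (39.3 and 64.7). In signalling and polarity were NBP2, which brings a phosphatase to the osmotic stress kinases (27.5 and 56.35 RPKM), RSR1, the GTPase of bud site choice (48.2 and 81.7), and TWF1, twinfilin, which binds actin monomers (44.8 and 78.7). In a mixed group of stress, lipid and other proteins, HSP12 had 40.7 and 72.9 RPKM, and PRY1, an exported sterol-binding protein, 39.8 and 81.8. In the same group OPI10 had 23.8 and 41.1 RPKM, the quinone reductase gene ZTA1 45.3 and 77.7, and SOL1 23.9 and 39.3. Genes of little or no known function were RTS3 (32.0 and 67.0 RPKM), RTC3 (44.1 and 88.5), MTC3 (32.9 and 56.1), YBR071W (42.4 and 77.9), YHR138C (36.35 and 65.3) and YER034W (26.45 and 46.6). RTS3 was the tenth by ratio, and the other genes of that last group had ratios of 1.71 to 2.01.

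**Figure D4:**
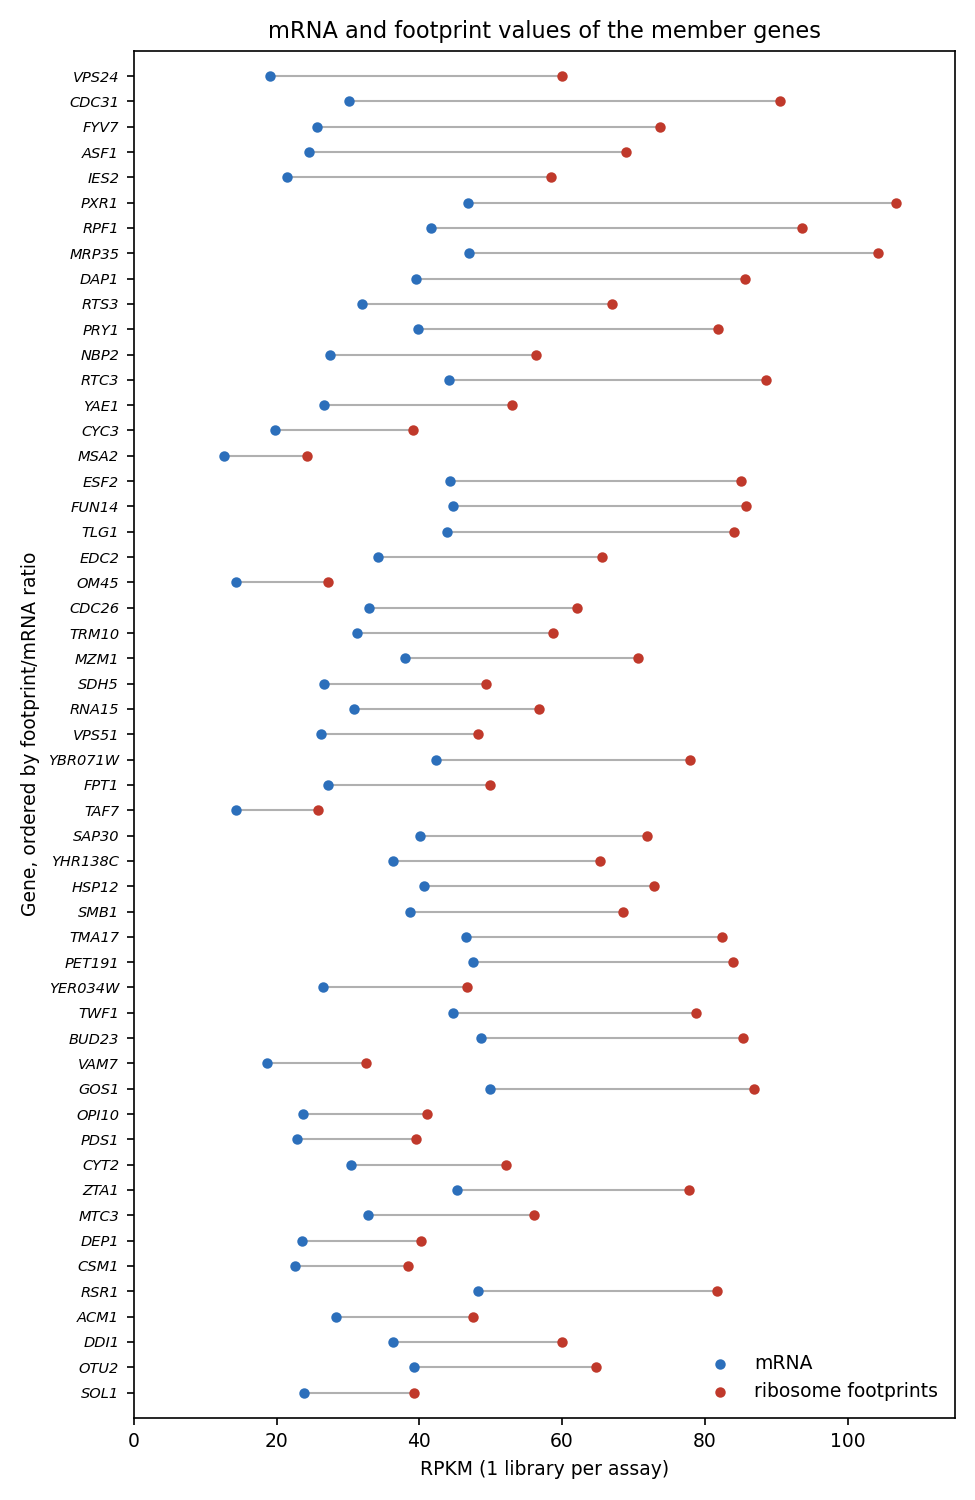
mRNA (blue) and footprint (red) RPKM of each of the 53 members, ordered by footprint to mRNA ratio from VPS24 (3.14) at the top to SOL1 (1.65) at the bottom; each point is the value of 1 library. Footprint values span 24.3 to 106.7 RPKM and lie to the right of mRNA in every gene, as the rule requires.

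The partners of some members in protein complexes are given next, as a description. The complexes were picked after the values had been seen, and the rule used the mRNA and footprint values of each member. Nothing is therefore read from a member's rank by mRNA, footprints or ratio among its partners. In ESCRT-III, VPS24 had less mRNA than the partners VPS20 (22.7 RPKM), SNF7 (55.1) and DID4 (77.8). In footprints it came to 59.99 RPKM, between VPS20 (23.5) and DID4 (83.3), and below SNF7 (132.8). SNF7 itself had a ratio of 2.41 and is no member because its mRNA exceeded the limit. The GARP subunits VPS52, VPS53 and VPS54 had ratios of 0.61, 0.40 and 0.47 against 1.84 for VPS51, with 13.3, 19.2 and 15.9 RPKM of footprints against 48.3. Their coding lengths were 1926, 2469 and 2670 nt against 495 nt for VPS51. In cleavage factor IA, RNA15 had the least mRNA of 4 subunits and the most footprints, 56.8 RPKM, against 32.7 for RNA14, 27.2 for CLP1 and 21.0 for PCF11. Its coding length was 891 nt, against 2034, 1338 and 1881 nt for those partners.

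In the APC, CDC26 had more mRNA than the other listed subunits except APC11 (55.7 RPKM). It had the most footprints of the 12, followed by APC11 (43.5 RPKM) and SWM1 (42.5). The largest subunit gene, APC1 (5247 nt), had 5.13 RPKM of footprints from 19.95 RPKM of mRNA. Of securin and its target separase, PDS1 had 39.6 RPKM of footprints from 22.9 RPKM of mRNA (1122 nt). ESP1 had 5.52 from 29.3 RPKM of mRNA (ratio 0.19, 4893 nt). In TFIID, TAF7 had the least mRNA of 15 subunits, 14.3 RPKM, while the others had 27.5 (TAF11) to 174 RPKM (SPT15, the TATA-binding protein). In footprints TAF7 was sixth from the bottom, near TAF11 (23.8) and TAF2 (24.6). TAF10, a shared subunit with SAGA, had a ratio of 1.796, nearly that of TAF7, from 58.95 RPKM of mRNA. Of 12 subunits of Rpd3L, SAP30 and DEP1 had the highest ratios and UME1 the next (1.55), and SIN3, the scaffold, had the lowest (0.56) with the most mRNA (120.6 RPKM). SAP30 and SIN3 nevertheless had like footprint levels, 71.96 and 67.4 RPKM.

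In the Sm ring, SMB1 was not the highest. Its ratio of 1.78 lay below those of SMD3 (1.99), SME1 (1.94) and SMX2 (1.895), whose mRNAs were above the limit, and it had the fewest footprints of the 6 listed Sm genes. LTO1, the partner of YAE1, had 38.0 RPKM of mRNA and 53.4 of footprints, so the pair had 53.0 and 53.4 RPKM of footprints. Monopolin's LRS4, the partner of CSM1, had 15.98 and 10.2 RPKM. The substrates of the heme lyases had more footprints than the enzymes, with 258.5 RPKM for CYC1 and 65.1 for CYT1.

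**Figure D5:**
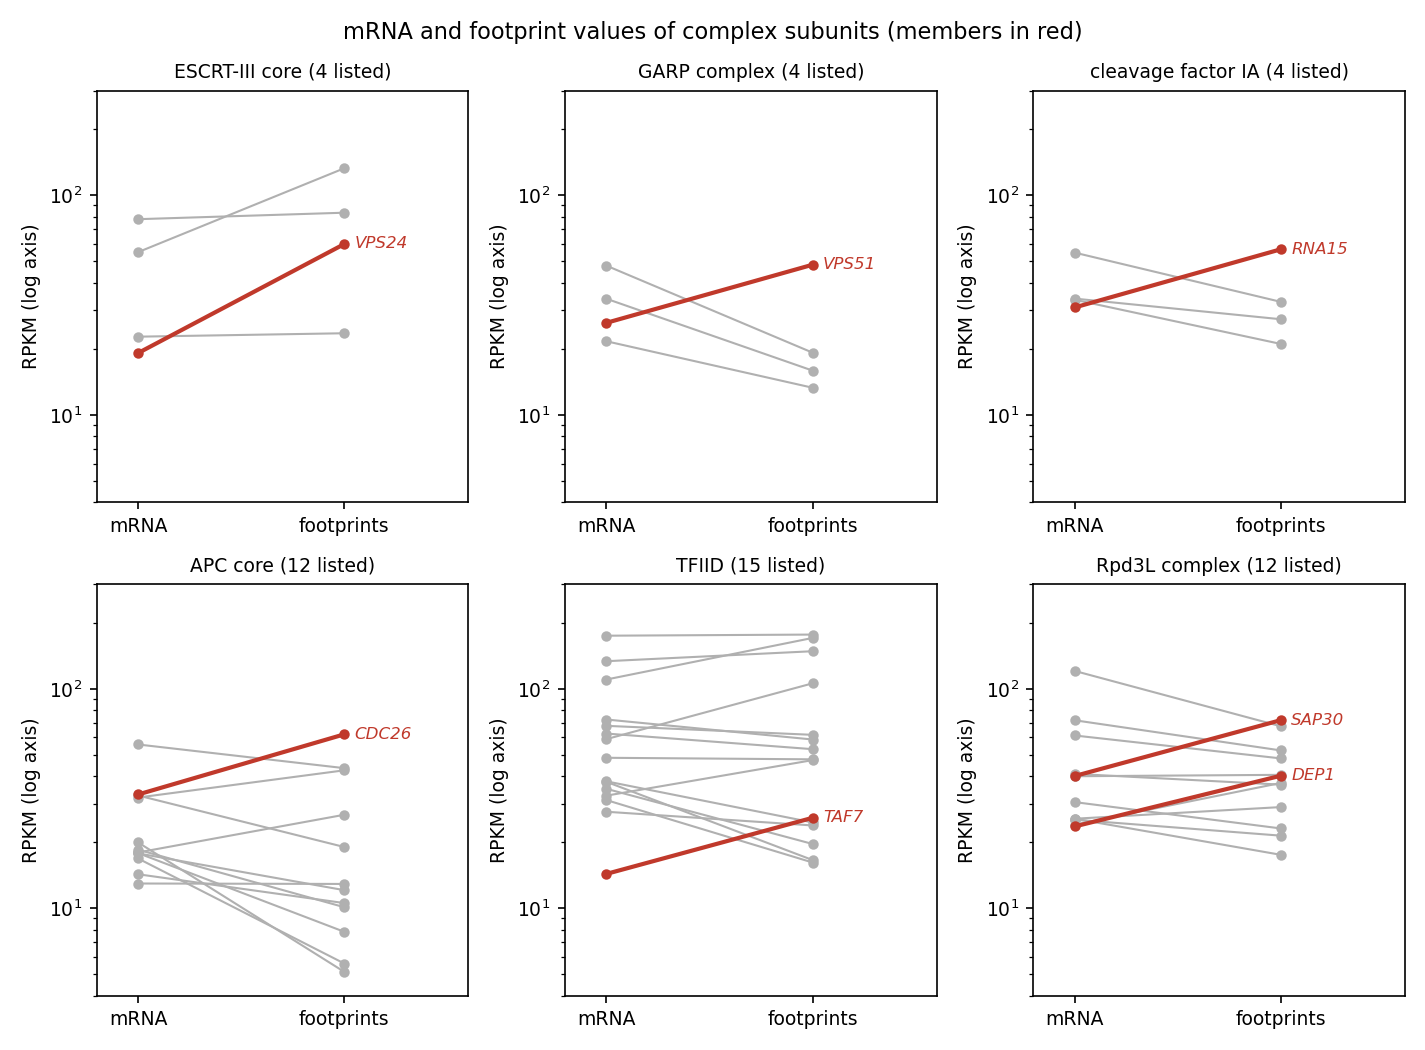
mRNA and footprint RPKM (log axis) of the listed subunits of 6 complexes, 1 line per gene and 1 library per assay; members red and named, partners grey. VPS51, RNA15, CDC26 and SAP30 end above their partners in footprints, while TAF7 starts lowest of 15 TFIID subunits in mRNA and ends sixth from the bottom. The rule used both values, so these ranks are only a description.

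Of the 32 gene lists drawn up for this comparison, 14 held a member, and 23 of the 53 members were on a list. These counts are set beside the 2.23% of all scarce genes that are members and the median ratio of all scarce genes, 0.62. Both values went down with coding length, and no list was matched for length. They were 5.38% and 0.87 from 751 to 900 nt, 3.24% and 0.85 from 901 to 1050 nt, and 0.215% and 0.60 from 1351 to 1800 nt. Respiratory assembly factors had 5 members among 33 scarce genes, with a median ratio of 0.88 and a median coding length of 840 nt. SNAREs and TRAPP subunits had 3 among 18 (0.94, 909 nt), and chromatin complexes 4 among 59 (0.80, 1416 nt). ESCRT had 1 among 15 (1.04, 897 nt), and 11 of those 15 lay at or above the ratio of the median listed gene. One scarce gene each was a member in the lists for the spindle pole body (of 15), the APC (of 13), iron-sulfur assembly (of 13), general transcription factors (of 26), splicing and Lsm proteins (of 64) and tRNA modification (of 40). The same held for other small traffic proteins (of 11) and for proteasome assembly and small subunits (of 4). It also held for dynein and actin-related small proteins (of 10) and for meiosis and sporulation (of 13). Some of these lists were thus drawn up for small proteins.

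No member was found on the other 18 lists. Among them were transcription factors (89 scarce genes, median ratio 0.61, median 2067 nt), protein kinases (80, 0.51, 2033 nt), DNA repair (64, 0.47, 1850 nt) and nutrient transporters (28, 0.59, 1803 nt). Replication fork proteins (37 scarce genes, 0.77), kinetochore proteins outside DASH (29, 0.62), autophagy (28, 0.52), GPI anchor and N-glycan synthesis (27, 0.69), peroxins (24, 0.65) and Mediator (19, 0.73) had none either. Ubiquitin-like systems (17 scarce genes, 0.73) and mitochondrial import (16, 0.62) were also without one. So were the short lists of DASH (7, 0.93), RNase P and MRP (6, 0.99), prefoldin (6, 0.83), redox proteins (4, 0.72), RNA polymerase subunits (2, 0.76) and respiratory chain subunits (2, 1.17). A count of 0 is close to the background of 2.23% in the long lists as well as the short ones, so it sets none of them apart. Median coding length also differed widely between lists. Members were 1 of 465 scarce genes of 1351 to 1800 nt and 0 of the 887 longer ones. For lists of long genes, such as the transcription factors, the background by length was therefore lower than 2.23%.

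Other features of the coding sequence were set beside those of the other scarce genes. Median codon adaptation, the likeness to the codon use of cytosolic ribosomal protein genes, was 0.18 both in members and in the other scarce genes and 0.30 in the 262 genes with the same ratio and more mRNA. HSP12 (0.70), PRY1 (0.35) and RTC3 (0.34) had the highest values among members. The median GC content was 42.3% in members, 38.8% in the other scarce genes (39.4% weighted to the members' lengths) and 42.0% in the 262 genes. The median Kyte-Doolittle mean hydropathy of the encoded proteins, lower for more hydrophilic ones, was -0.78 against -0.44 in the other scarce genes (-0.45 weighted to length). In the 262 genes it was -0.50. In the class of highest ratio among scarce genes up to 1050 nt, without its members, it was -0.66. A 19-residue stretch with a mean hydropathy of at least 1.6 is the usual mark of a membrane span. Such a stretch was found in 8 members (15.1%, exact 95% interval 6.75 to 27.6%), in 29.9% of the other scarce genes (22.2% weighted) and in 19.1% of the 262 genes. It was strongest in TLG1 (3.52), GOS1 (2.21) and FUN14 (2.16). Some members encode very acidic proteins, with a net charge, counted as lysine and arginine minus aspartate and glutamate, of -79 for TAF7, -70 for ASF1, -40 for DEP1 and -38 for NBP2. PXR1 (27), FYV7 (25) and MRP35 (25) were very basic, and the median was -1 in both groups.

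No member had an intron in its coding sequence or overlapped another annotated gene, and 0 of 53 allows a share of up to 6.72% for each. An intron was present in 1.98% of the other scarce genes (6.24% weighted to the members' lengths, 9.43% of those up to 600 nt) and in 11.1% of the 262 genes. An overlap was present in 1.12% of the other scarce genes (1.46% weighted). Members lay on all 16 nuclear chromosomes, from 1 on chromosomes IX and XII to 7 on chromosome VII. A search of the genome with the members' coding sequences found a like sequence of at least 50 nt elsewhere for 6 of them. The closest were for SOL1 (76.5% identity over 686 nt) and PXR1 (76.5% over 81 nt), so none has a near-identical copy with which reads would be shared over a long stretch. Within the members, ratio and coding length had a Spearman rho of -0.19 across 53 genes, ratio and mRNA level -0.07, and ratio and codon adaptation 0.27. The limits restrict ratio and mRNA level, and all genes share the same 2 libraries. Over all 2378 scarce genes the rho of ratio with coding length was -0.53, with mRNA level 0.29 and with codon adaptation 0.05.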

How the data were processed

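The authors deposited 1 table with RPKM values per gene for an RNA-seq and a footprint library, and the log2 ratio of the 2 (the authors' deposited log2 column equalled that ratio to within 1.63e-09). Per the file headers, genes with at least 10 RPM of RNA and more than 0 RPM of footprints were kept. A note with the files says that the first 8 random bases of each read must be stripped. The build is sacCer3, per the submitters' processing notes; aligner, counting rule and use of strand are not given in the sources that were used here. Read totals are unknown, so no counting interval is given for a level.

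All 4685 identifiers matched a locus tag of the NCBI annotation of assembly R64, which sacCer3 names. Symbols, coordinates, coding lengths and sequence come from it, with no UTRs annotated. Python 3.11.15 and pandas 2.3.3 were used, SciPy 1.17.1 for exact binomial intervals over genes, which describe genes and not experiments, and BLAST+ 2.17.0 (E-value limit 1e-05). Codon weights came from 134 genes of ribosomal proteins, adding 0.5 to every codon's count. Members, lists and groups were chosen with earlier results of these data known. The naming rule took the 12 members of highest ratio, the 5 with most footprints, the 5 with least mRNA, the 3 longest and 3 shortest, the genes nearest each limit and members on a list. The other members, their roles, the partners in 13 complexes and AGA1, EAP1 and NOP8 were named after their values were seen. The alternatives changed the limits, pseudocount, filters, centring, length and windows.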

Additional observations from a re-analysis of the deposited data

How the results depend on the processing

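No paired analysis was possible because each assay had 1 library and no test was made, and no replicate could be left out. The number of members (53) was 50 to 54 with 1 RPKM added to both values, with the ratio limit not rounded, with mean RPKM filters of 5 or 20, without overlapping genes, and with coding lengths of at least 300 nt. It was 13 with an mRNA limit of 25 RPKM and 123 with one of 100 RPKM. It was 13 with a ratio limit of 2, 188 with the limit at 2 times the median scarce gene and 5 with it at 2 times summed footprints over summed mRNA. It was 16 with ratios taken relative to genes of like coding length, and 13 of those 16 are members. The share of scarce genes that are members (2.23%) moved to 1.33, 3.53, 0.547, 7.91, 0.210 and 0.673% in the same order of settings, and to 3.65% where the mean RPKM had to reach 20. The share of members up to 600 nt (37.7%) was 7.69% with the mRNA limit of 25 RPKM, and 18.9% up to 450 nt and 54.7% up to 750 nt. For the other scarce genes (4.56%) it was 1.77% and 7.67% with mRNA limits of 25 and 100 RPKM, 7.07% with that same filter, 3.24% with the limit set by the median scarce gene, and 1.33% and 10.3% up to 450 and 750 nt. It was lower than that of the members under each of these settings. With the mRNA limit of 25 RPKM, however, this rests on 1 of 13 members against 17 of 963 other scarce genes. The share of other scarce genes with an A 3 bases before the start codon (55.4%) was 59.4% up to 600 nt and 59.2% weighted to the members' lengths, so the gap to the members (62.3%) was smaller there. Among genes up to 600 nt it was 60% in members. The windows for the upstream ATG and the weighting to length were chosen after seeing the data. The share with an upstream ATG was 0% of members and 11.9% of other scarce genes in 30 bases, and 32.1% and 55.9% in 100 bases. In 50 bases and for genes up to 600 nt only, it was 5% (1 of 20 members) and 25.5%. The cause of these shifts was not tested. Depth is unknown, and without a second library the stability of single members is unknown.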
